A study of Mus musculus with 4 samples.

Results

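The axon guidance ligand and receptor families were followed in mouse medulloblastoma, a tumour of the cerebellum. Members were chosen by gene symbol. Every probe set with a single annotated symbol of the semaphorins (Sema), plexins (Plxna to Plxnd), neuropilins (Nrp1, Nrp2), slits, robos, netrins (Ntn), Dcc, Unc5 receptors, ephrins (Efna, Efnb) or Eph receptors (Epha, Ephb) was taken, and for a gene with several the one with the highest mean over the arrays. This gave 70 genes with 75 probe sets, of 19938 named genes in all. Of these, 68 belong to the guidance families, with 35 ligands and 33 receptors. The symbols Unc50 and Unc5cl were taken by their letters only. Unc50 encodes a Golgi membrane protein and Unc5cl a relative of the Unc5 proteins that acts in inflammatory signalling, and both are counted as members but not as guidance genes.

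Of the 3 tumours, 2 were from Math1-Cre;SmoM2 mice, 1 taken at an age of 1 month and 1 at 2 months. The third came from a PtchLacZ/+ mouse at 5 months. They were set beside 1 whole cerebellum, from a wild-type animal at 2 months. All mice were on a mixed background of the C57BL/6 and C3H strains, and the total RNA of each sample was read on 1 Affymetrix Mouse Gene 1.0 ST array. In the Math1-Cre;SmoM2 mice, Cre under control of Math1 (Atoh1), a gene of granule neuron progenitors, switches on an active form of the Hedgehog transducer Smoothened. The PtchLacZ/+ mice carry a lacZ allele of the Hedgehog receptor gene Ptch1 in all cells, and the tumours arise spontaneously in both models. Below, the models are shortened to SmoM2 and PtchLacZ/+. The labels do not say how many animals gave each sample, so p-values measure no more than how these samples vary. That spread includes age, and where the 3 tumours were taken as 1 group it includes the tumour model too. Since the PtchLacZ/+ tumour was also the oldest, its genotype cannot be told apart from its age.

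Guidance molecules steer growing axons and migrating neurons by attraction and repulsion. Secreted netrins attract through Dcc and repel through Unc5 receptors, slits repel through Robo receptors, semaphorins signal through plexins with or without a neuropilin as coreceptor, and membrane-bound ephrins signal to Eph receptor kinases on touching cells. In the cerebellum these systems are known for the migration of granule neurons inward from the outer surface and for the wiring of their parallel fibres. Each of the families is described in turn, ligands before receptors.

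The first comparison asked which guidance genes differ between these Hedgehog-driven tumours and cerebellum. The largest difference was that of Dcc, the attractive netrin receptor, which rose 26.2-fold, while Unc5a, Unc5b and Unc5c, the repulsive netrin receptors, fell 2.44-fold to 4.21-fold. The slit receptor Robo1 and the plexins Plxnb2 and Plxnc1 rose, and the ligand genes Sema3a and Slit3, the plexin Plxna4 and the Eph receptors Epha4 and Epha6 fell. In all, 22 of the 70 members passed the test (limma on log2 values, Benjamini-Hochberg adjusted p under 0.05 over all 19938 genes), against 16.0% of all genes. Of these 22, 8 were higher and 14 lower in the tumours, against 6.70% and 9.30% of all genes, and 19 differed by at least 2-fold. The median difference was 0.04 log2 units over the members and 0.04 over all genes, and the median size of the difference without its sign was 0.79 and 0.30. Members were more often at a high level than other genes, with 41 of 70 above the median level of named genes. Of those 41, 16 passed, against 24.9% of all genes above that level. All 3 tumours lay above the cerebellum for 27 members and below it for 29, against 38.1% and 32.0% of all genes. The share that passed was 31.4% among ligands and 33.3% among receptors.

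**Figure D1:**
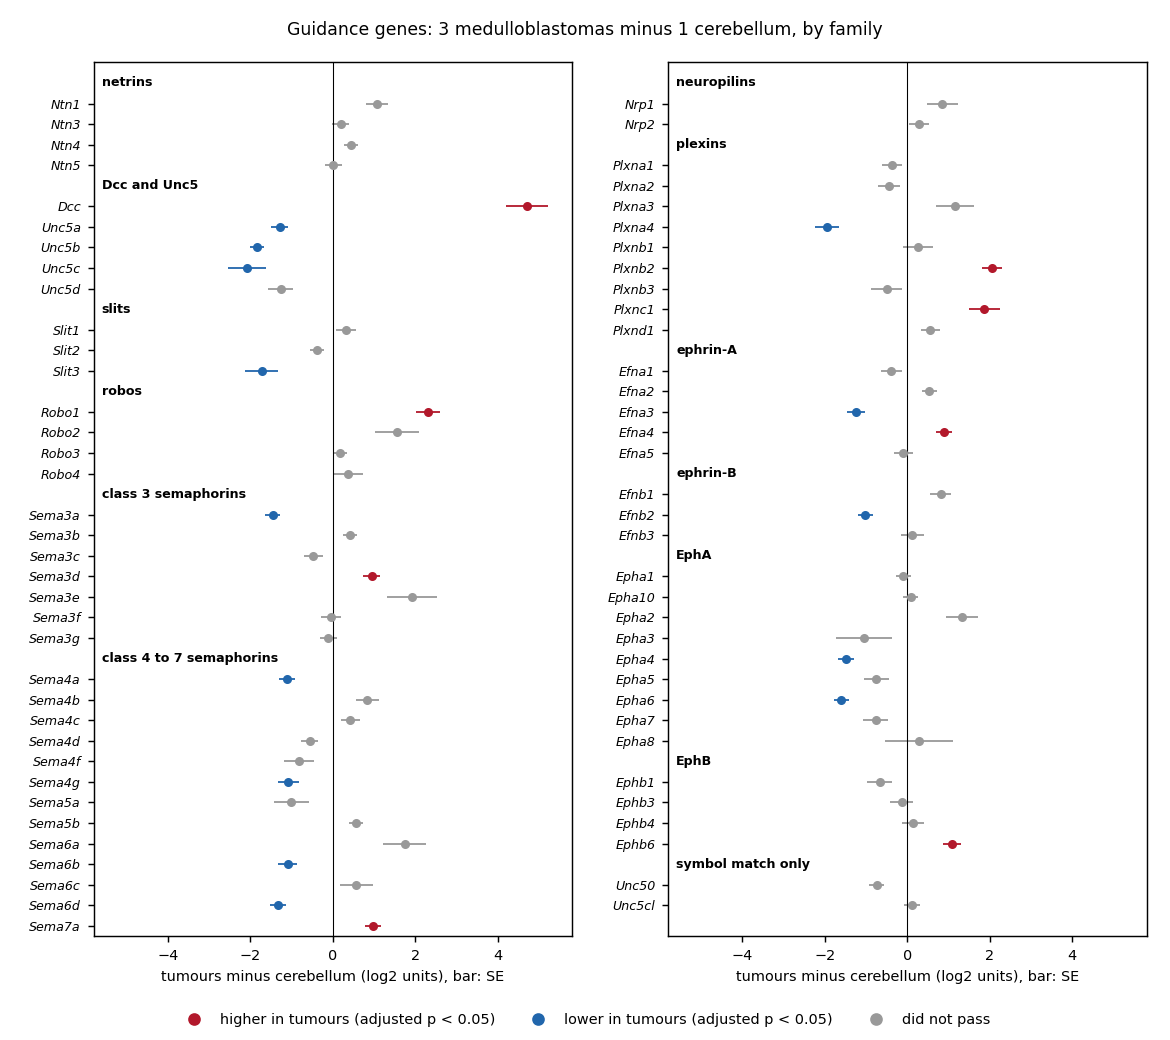
The difference between the mean of the 3 tumours and the cerebellum (x axis, log2 units, bars: limma standard error) is plotted for each of the 70 members by family. Dcc lies far to the right at 4.71 while the 4 Unc5 receptors lie to the left, between -2.08 and -1.27.

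With 1 cerebellum, its spread was taken to equal that of the tumours, and 1 tumour can decide a call. A fit with a tumour left out also has 1 array fewer, so a call can be lost while the difference stays the same or grows. With each tumour left out in turn, 7 members passed every time, namely Dcc, Robo1, Plxnb2, Plxna4, Unc5b, Sema3a and Epha6. When the 2-month SmoM2 tumour was left out, 17 members rose and 17 fell, against 13.5% and 16.7% of all genes, and all of the 22 were among them. When the 1-month SmoM2 tumour was left out, 4 rose and 10 fell, against 4.98% and 6.48% of all genes, and 13 of the 22 were among them. Leaving out the PtchLacZ/+ tumour gave 4 rises and 5 falls, against 3.15% and 4.70% of all genes, with 8 of the 22 among them. No share over all genes is given here for passing every time or for these overlaps, so they do not compare the members with other genes. The samples also differed in cell markers. Of 7 markers of mature granule neurons 4 fell, with a mean log2 level of 8.57, 8.28 and 7.12 in the 1-month SmoM2, 2-month SmoM2 and PtchLacZ/+ tumours and 12.15 in the cerebellum. Of 5 measured Purkinje cell markers 3 fell (means 7.50, 7.27 and 5.48 in the tumours, 11.04 in the cerebellum), as did all 5 of inhibitory interneurons, 4 of 6 of astrocytes and 4 of 5 of mature oligodendrocytes. Of 6 granule neuron progenitor markers 5 rose (11.10, 11.05 and 11.32 in the tumours, 7.71 in the cerebellum), as did 3 of 4 of oligodendrocyte precursors and 3 of 5 of microglia and macrophages. The other measured markers of mature granule neurons and Purkinje cells did not pass but also lay below the cerebellum in every tumour. Of the astrocyte markers, Gfap lay above it in every tumour and did not pass. In such whole-tissue samples, fewer cells of a type and less RNA per cell cannot be told apart, and the part of these markers in the results below was not tested.

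Values below are log2 expression levels as deposited, given for the 1-month SmoM2, the 2-month SmoM2 and the PtchLacZ/+ tumour in that order and then for the cerebellum. Levels below the lower quartile that named genes had on an array (5.09 to 5.17) are described as not shown to be above background. Epha1 was under it on all arrays, 6 other members were on some arrays (Epha6, Robo3, Slit1, Slit2, Slit3 and Unc5cl), and 63 were on none.

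Promoter sequences are shown for the Unc5 receptor genes that fell together and for Plxnc1 and its ligand gene Sema7a, which rose together. They are RefSeq windows (build GRCm38.p6) of 300 bases, 250 before and 50 after the annotated start of the gene, written 5' to 3' on the strand of the gene. Capitals mark the core ACCACCC of the site bound by Gli factors, the transcription factors of the Hedgehog pathway, or the E-box CAGCTG, a site of bHLH factors such as Atoh1. Both strands were searched, the E-box reads the same on both, and no match of one overlapped the other in these windows.
Unc5a (chr13:54949161-54949460, plus strand): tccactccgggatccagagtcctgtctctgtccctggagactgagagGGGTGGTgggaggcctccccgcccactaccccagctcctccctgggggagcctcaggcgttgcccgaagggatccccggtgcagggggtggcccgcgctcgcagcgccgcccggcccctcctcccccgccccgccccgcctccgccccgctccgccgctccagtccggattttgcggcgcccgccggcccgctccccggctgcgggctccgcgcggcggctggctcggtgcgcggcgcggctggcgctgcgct
Unc5b (chr10:60831532-60831831, minus strand): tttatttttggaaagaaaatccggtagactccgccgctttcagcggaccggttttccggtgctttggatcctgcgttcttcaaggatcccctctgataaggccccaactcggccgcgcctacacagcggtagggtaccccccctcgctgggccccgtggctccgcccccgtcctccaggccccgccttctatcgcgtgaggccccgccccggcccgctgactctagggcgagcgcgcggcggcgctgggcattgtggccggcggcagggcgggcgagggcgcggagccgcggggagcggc
Unc5c (chr3:141465314-141465613, plus strand): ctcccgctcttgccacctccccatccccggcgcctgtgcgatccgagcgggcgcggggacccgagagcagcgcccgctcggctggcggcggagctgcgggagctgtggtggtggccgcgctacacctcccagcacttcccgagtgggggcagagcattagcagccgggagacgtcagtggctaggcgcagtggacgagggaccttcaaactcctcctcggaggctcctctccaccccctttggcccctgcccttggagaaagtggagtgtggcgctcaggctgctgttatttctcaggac
Plxnc1 (chr10:94944796-94945095, minus strand): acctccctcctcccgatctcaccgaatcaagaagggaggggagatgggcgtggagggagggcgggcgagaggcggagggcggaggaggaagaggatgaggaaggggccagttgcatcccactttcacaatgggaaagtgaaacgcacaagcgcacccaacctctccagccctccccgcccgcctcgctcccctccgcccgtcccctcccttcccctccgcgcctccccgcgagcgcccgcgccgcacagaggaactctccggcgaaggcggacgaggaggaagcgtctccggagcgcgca
Sema7a (chr9:57939862-57940161, plus strand): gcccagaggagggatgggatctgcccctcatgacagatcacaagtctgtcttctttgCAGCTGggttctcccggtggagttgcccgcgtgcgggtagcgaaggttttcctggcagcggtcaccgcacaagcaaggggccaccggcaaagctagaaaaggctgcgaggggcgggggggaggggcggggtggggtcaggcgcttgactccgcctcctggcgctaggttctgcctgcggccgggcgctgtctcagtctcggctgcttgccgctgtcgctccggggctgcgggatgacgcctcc
The Unc5a window held 1 Gli core, on the opposite strand and so read as GGGTGGT, and the Sema7a window held 1 E-box. The windows of Unc5b, Unc5c and Plxnc1 held neither. Of the members that rose, 7 of 8 had a window, the exception being Dcc. The Gli core was in 0 and the E-box in 1 of these 7 genes, and Dcc is not covered. Among those that fell, 13 of 14 had a window, and 2 genes held a Gli core (Unc5a and Sema6b) and 2 an E-box (Epha6 and Sema4g). Over all 27025 genes with a window, 5.31% held a Gli core and 18.3% an E-box. The 13 genes that fell had 19 windows, with a median of 64.0% G and C bases. The 7 that rose had 8 windows, with a median of 64.5%. All members had 76 windows, with a median of 64.2%, so this share does not set the genes that fell apart. All genes had 32851 windows, with a median of 52.7%. A match is no more than these letters in the window.

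The netrin ligands came first. Ntn1, the secreted netrin that Dcc and Unc5 receptors bind, was at 8.98, 8.48 and 8.98 in the tumours and at 7.75 in the cerebellum. All 3 tumours lay above the cerebellum, but the difference of 1.06 ± 0.27 (limma standard error, as after every ± below) did not pass (adjusted p = 0.0594). It passed when the 2-month SmoM2 tumour was left out (adjusted p = 0.00345) and when dim genes were filtered out before the adjustment (adjusted p = 0.0462). Ntn4, a netrin of basement membranes, was at 8.14, 8.09 and 8.20 in the tumours and 7.71 in the cerebellum, a difference of 0.44 ± 0.17 (adjusted p = 0.162). The other netrins, Ntn3 and Ntn5, differed by 0.19 and 0.01, with intervals (95%) of -0.35 to 0.72 and -0.50 to 0.51. None of the 4 netrins thus passed.

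Among the netrin receptors, Dcc was at 10.91, 9.69 and 10.74 in the tumours and at 5.73 in the cerebellum. The tumours lay at least 3.96 log2 units above the cerebellum, with the 2-month SmoM2 tumour the lowest of them, and Dcc rose by 4.71 ± 0.51 (adjusted p = 0.00742). Unc5b was at 6.66, 6.55 and 6.76 in the tumours and at 8.50 in the cerebellum, with the tumours close together and all below, and fell by 1.84 ± 0.18 (adjusted p = 0.00634). Unc5c was at 7.23, 6.59 and 7.77 in the tumours and 9.27 in the cerebellum. The tumours were spread over more than 1 log2 unit but all below, and Unc5c fell by 2.08 ± 0.46 (adjusted p = 0.0436). It did not pass without the 1-month SmoM2 tumour (adjusted p = 0.0697), after quantile normalization (adjusted p = 0.0562) or with arrays centred on their median (adjusted p = 0.0507). Unc5a was at 6.28, 6.23 and 5.99 in the tumours and 7.45 in the cerebellum, where the tumours again lay together below it. It fell by 1.29 ± 0.20 (adjusted p = 0.0166), a call that was lost on leaving out the PtchLacZ/+ tumour (adjusted p = 0.0635). Unc5d, the remaining member of the family, was at 6.03, 5.67 and 6.37 in the tumours and 7.30 in the cerebellum, and its difference of -1.27 ± 0.30 did not pass (adjusted p = 0.0523). It passed when the 2-month SmoM2 tumour was left out (adjusted p = 0.0113), and a further Unc5d probe set differed by -0.44. All 4 Unc5 genes were thus lower in each tumour, and 3 of them passed.

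Some other genes of netrin and Unc5 signalling were read from a list of guidance cues and coreceptors outside the families. Draxin, a secreted repulsive cue that binds Dcc, was at 11.23, 10.30 and 10.89 in the tumours and at 5.51 in the cerebellum. Its tumours lay far above the cerebellum, as for Dcc, and it rose by 5.29 ± 0.38 (adjusted p = 0.00405), the largest difference of the list. Neo1, a receptor related to Dcc, was at 10.87, 10.40 and 10.84 in the tumours and at 9.47 in the cerebellum and rose by 1.23 ± 0.25 (adjusted p = 0.0341). Flrt2 and Flrt3 encode membrane proteins that bind Unc5 receptors. Flrt2 rose by 1.53 ± 0.25 (adjusted p = 0.0197), and Flrt3 fell by 1.02 ± 0.19 (adjusted p = 0.0261). Flrt1, the third gene of that family, differed by -1.03 ± 0.28 and did not pass (adjusted p = 0.0701), although it did with the 1-month or the 2-month SmoM2 tumour left out (adjusted p = 0.0462 and 0.0269). None of Neo1, Flrt2 and Flrt3 passed with the PtchLacZ/+ tumour left out (adjusted p = 0.108 for Neo1, 0.0552 for Flrt2 and 0.110 for Flrt3), and Neo1 and Flrt3 also missed with the 1-month SmoM2 tumour left out (adjusted p = 0.0739 and 0.0749). Unc5d, Neo1, Flrt1, Flrt2 and Flrt3 were singled out after their values were seen.

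**Figure D2:**
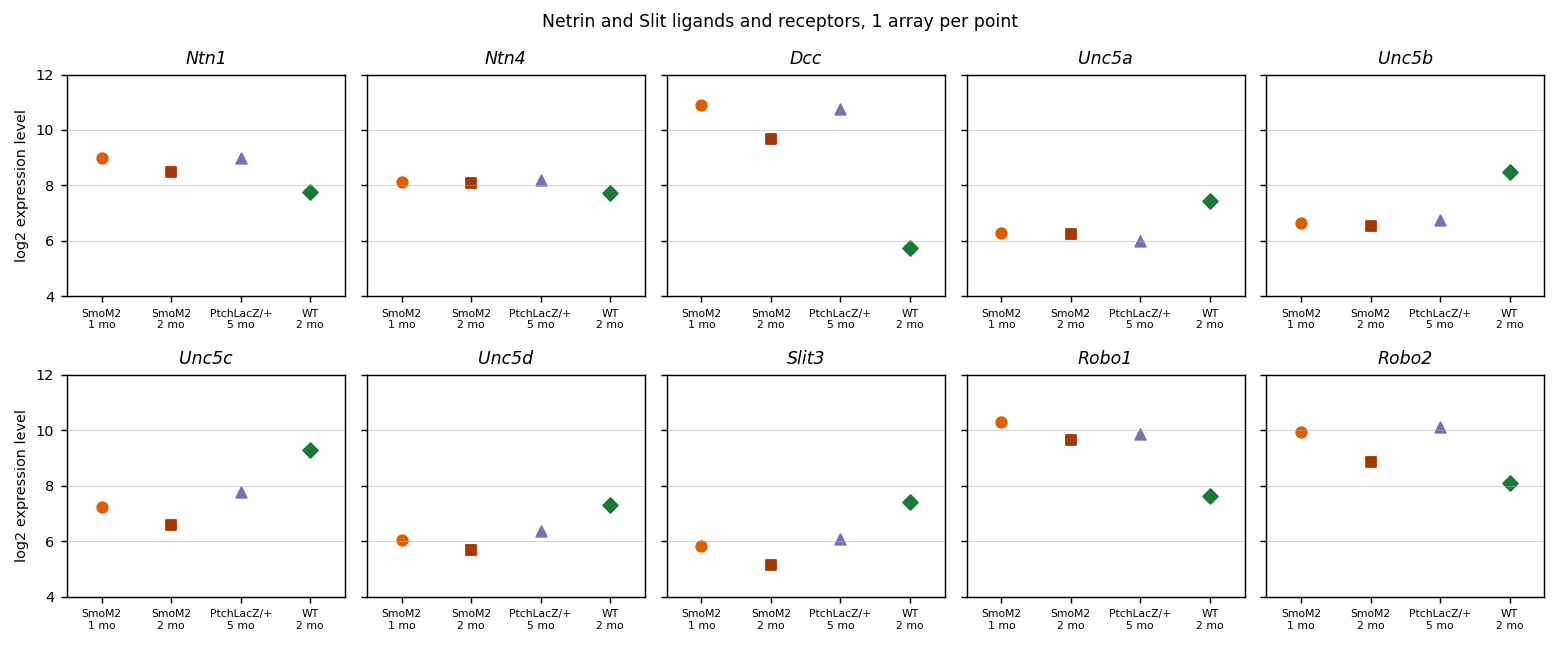
Log2 expression levels (y axis) on each array (x axis) are plotted for 10 netrin and Slit system genes, with 1 point per array. Dcc and Robo1 are higher in all 3 tumours than in the cerebellum, and Unc5a to Unc5d and Slit3 are lower in all 3.

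Of the Slit ligands, Slit3 was at 5.82, 5.14 and 6.06 in the tumours and at 7.40 in the cerebellum. All tumours lay below, the 2-month SmoM2 tumour at a level not shown to be above background, and Slit3 fell by 1.73 ± 0.39 (adjusted p = 0.0443), a lower limit for that reason. It did not pass without the 1-month SmoM2 tumour (adjusted p = 0.0648), without the PtchLacZ/+ tumour (adjusted p = 0.0510) or with arrays centred on their median (adjusted p = 0.0529). Slit1 and Slit2 differed by 0.31 and -0.38 from levels near the lower quartile and did not pass. Slit2 was at 5.15, 5.15 and 5.27 in the tumours and at 5.57 in the cerebellum (adjusted p = 0.222).

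Of their receptors, Robo1 was at 10.29, 9.66 and 9.86 in the tumours and at 7.63 in the cerebellum. The tumours lay more than 2 log2 units above it, and Robo1 rose by 2.31 ± 0.29 (adjusted p = 0.0100), which is 4.95-fold. Robo2 was at 9.95, 8.84 and 10.12 in the tumours and at 8.08 in the cerebellum. It too was above in each tumour, but the 2-month SmoM2 tumour lay over 1 log2 unit below the other tumours, and the difference of 1.56 ± 0.53 did not pass (adjusted p = 0.128). Without that tumour it was 1.96 and passed (adjusted p = 0.00122). Robo3 and the endothelial receptor gene Robo4 differed by 0.17 and 0.37, with intervals (95%) of -0.29 to 0.64 and -0.52 to 1.27. The robos thus held 1 rise among 4 genes and the slits 1 fall among 3.

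Class 3 semaphorins are secreted, and most of them bind neuropilins. Sema3a, a repulsive cue that acts through Nrp1 and A-type plexins, was at 6.20, 6.40 and 6.40 in the tumours and at 7.80 in the cerebellum. The tumours lay close together, all below, and Sema3a fell by 1.46 ± 0.18 (adjusted p = 0.0103). Sema3d was at 7.70, 7.59 and 7.37 in the tumours and at 6.62 in the cerebellum and rose by 0.94 ± 0.20 (adjusted p = 0.0417). It did not pass without the 1-month SmoM2 tumour (adjusted p = 0.103), without the PtchLacZ/+ tumour (adjusted p = 0.0916) or with a trended prior variance (adjusted p = 0.0573). Sema3e, which signals through Plxnd1 without needing a neuropilin, was at 9.55, 8.95 and 7.96 in the tumours and at 6.91 in the cerebellum. It was above in each tumour and least so in the PtchLacZ/+ tumour, and the difference of 1.91 ± 0.61 did not pass (adjusted p = 0.108). Without the PtchLacZ/+ tumour it was 2.34 and passed (adjusted p = 0.0286). The 4 other genes, Sema3b, Sema3c, Sema3f and Sema3g, differed by -0.48 to 0.42 and did not pass. The class thus held 1 rise and 1 fall among 7 genes.

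Semaphorins of classes 4 to 6 span the membrane and Sema7a is held in it by a lipid anchor. Of these 13 genes, 1 rose and 4 fell, with a median difference of -0.56. Sema7a, a ligand of Plxnc1 and of integrins, was at 11.61, 11.61 and 11.84 in the tumours and at 10.72 in the cerebellum. The tumours lay together above the cerebellum, and Sema7a rose by 0.97 ± 0.19 (adjusted p = 0.0312). The call was lost without the 1-month SmoM2 tumour (difference 1.01) or without the PtchLacZ/+ tumour (difference 0.89). Sema6d, a ligand of Plxna1, was at 8.28, 8.23 and 7.97 in the tumours and at 9.49 in the cerebellum and fell by 1.33 ± 0.20 (adjusted p = 0.0164). Sema6b was at 7.65, 7.63 and 7.29 in the tumours and at 8.62 in the cerebellum and fell by 1.10 ± 0.22 (adjusted p = 0.0334). Both of these class 6 genes were below the cerebellum in every tumour, and neither passed without the PtchLacZ/+ tumour (adjusted p = 0.0590 for Sema6d and 0.0987 for Sema6b). Sema6b also missed without the 1-month SmoM2 tumour (adjusted p = 0.0610).

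Sema6a lay on the other side within the same class. This ligand of Plxna2 and Plxna4, known in mouse cerebellum for the inward migration of granule cells, was at 10.06, 8.85 and 9.99 in the tumours and at 7.89 in the cerebellum. The 1-month SmoM2 and PtchLacZ/+ tumours lay more than 2 log2 units above the cerebellum and the 2-month SmoM2 tumour nearly 1. The difference of 1.74 ± 0.52 did not pass (adjusted p = 0.0937). With the 2-month SmoM2 tumour left out it was 2.13 and passed (adjusted p = 0.000898). Of the class 4 genes, Sema4a was at 6.20, 6.38 and 6.15 in the tumours and at 7.36 in the cerebellum and fell by 1.12 ± 0.19 (adjusted p = 0.0205). Sema4g, a ligand of Plxnb2, was at 6.88, 6.36 and 6.61 in the tumours and at 7.70 in the cerebellum and fell by 1.08 ± 0.25 (adjusted p = 0.0492). Neither Sema4a nor Sema4g passed without the PtchLacZ/+ tumour (adjusted p = 0.0882 and 0.141), Sema4a did not without the 1-month SmoM2 tumour (adjusted p = 0.0595), and Sema4g did not after quantile normalization (adjusted p = 0.0654) or centring (adjusted p = 0.0578). Sema5a, at 7.27, 6.23 and 6.59 in the tumours and 7.71 in the cerebellum, differed by -1.01 ± 0.42 (adjusted p = 0.190). It passed without the 1-month SmoM2 tumour (adjusted p = 0.0478). The other 6 genes of these classes differed by -0.82 to 0.83 and did not pass. One of them, Sema4d, differed by -0.56 on the probe set used and by -1.41 on its other one (6.79, 6.16 and 6.46 in the tumours and 7.88 in the cerebellum). Of them, Sema4b, Sema5b and Sema6c passed with the 2-month SmoM2 tumour left out (adjusted p = 0.0337, 0.0342 and 0.0105).

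Plexins, the signalling receptors of the semaphorins, moved in both directions. Plxnb2, a receptor of class 4 semaphorins known in mice for the proliferation and migration of granule cell precursors, was at 11.28, 10.89 and 11.40 in the tumours and at 9.14 in the cerebellum. All tumours were well above, and Plxnb2 rose by 2.05 ± 0.25 (adjusted p = 0.00998), which is 4.13-fold. Plxnc1, the receptor of Sema7a, was at 9.95, 9.16 and 10.00 in the tumours and at 7.84 in the cerebellum. Here the 2-month SmoM2 tumour was the lowest of the 3, and Plxnc1 rose by 1.87 ± 0.38 (adjusted p = 0.0347). The rise did not pass without the 1-month SmoM2 tumour (adjusted p = 0.0604) or without the PtchLacZ/+ tumour (adjusted p = 0.0809). Plxna4, a plexin that transmits the Sema3a signal, was at 6.92, 6.31 and 6.41 in the tumours and at 8.48 in the cerebellum. It was below in all tumours and fell by 1.94 ± 0.29 (adjusted p = 0.0155), which is 3.83-fold.

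Plxna3 was at 9.42, 8.29 and 9.16 in the tumours and at 7.81 in the cerebellum. It differed by 1.15 ± 0.46 (adjusted p = 0.182), and by 1.48 without the 2-month SmoM2 tumour, when it passed (adjusted p = 0.00336). The other 5 plexins, Plxna1, Plxna2, Plxnb1, Plxnb3 and Plxnd1, differed by -0.50 to 0.56 and did not pass. Of the neuropilins, Nrp1 was at 7.26, 7.90 and 7.01 in the tumours and at 6.53 in the cerebellum, a difference of 0.85 ± 0.37 (adjusted p = 0.214), and Nrp2 was at 6.55, 6.98 and 6.52 in the tumours and at 6.40 in the cerebellum, a difference of 0.28 ± 0.25 (adjusted p = 0.551). The Nrp1 level was highest in the 2-month SmoM2 tumour. So was the mean of 7 endothelial and mural markers, at 6.97, 8.12 and 7.20 in the tumours and 7.53 in the cerebellum, and the part of these cells in the Nrp1 level was not tested.

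Of the ephrins, which are the membrane-bound ligands of Eph receptors, 1 rose and 2 fell among 8. Efna3 was at 5.93, 5.84 and 5.54 in the tumours and at 7.02 in the cerebellum and fell by 1.25 ± 0.22 (adjusted p = 0.0232). Efna4 was at 7.66, 7.68 and 7.40 in the tumours and at 6.69 in the cerebellum and rose by 0.89 ± 0.20 (adjusted p = 0.0448). These 2 lipid-anchored ephrins, whose genes both lie on chromosome 3, thus moved in opposite directions in every tumour. Efnb2, a transmembrane ephrin with roles in vessels and neurons, was at 6.75, 6.62 and 6.79 in the tumours and at 7.74 in the cerebellum. Its tumours lay close together below the cerebellum and it fell by 1.02 ± 0.18 (adjusted p = 0.0222). None of the 3 passed without the PtchLacZ/+ tumour (adjusted p = 0.0721 for Efna3, 0.0987 for Efna4 and 0.0872 for Efnb2). Without the 1-month SmoM2 tumour Efna4 and Efnb2 missed too (adjusted p = 0.116 and 0.0627), as did Efna4 with a trended prior variance (adjusted p = 0.0650). Efna2, at 7.82, 7.88 and 8.04 in the tumours and 7.38 in the cerebellum, differed by 0.53 ± 0.18 (adjusted p = 0.128), and Efnb1, at 7.08, 7.51 and 7.04 in the tumours and 6.40 in the cerebellum, by 0.81 ± 0.25 (adjusted p = 0.101). Efnb1 passed with the 2-month SmoM2 tumour left out (adjusted p = 0.0256). Efna1, Efna5 and Efnb3 differed by -0.39 to 0.12.

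Among the 13 Eph receptors, 1 rose and 2 fell. Epha4, a receptor for ephrins of both classes, was at 6.78, 6.44 and 6.60 in the tumours and at 8.09 in the cerebellum. The tumours lay together below, and Epha4 fell by 1.48 ± 0.20 (adjusted p = 0.0127). The call was lost without the PtchLacZ/+ tumour, where the difference was still -1.48. Epha6 was at 4.25, 4.37 and 4.19 in the tumours and at 5.87 in the cerebellum. The tumour levels are not shown to be above background, so the fall of 1.60 ± 0.18 (difference -1.60, adjusted p = 0.00757) is a lower limit. Ephb6, whose kinase domain lacks activity, was at 7.63, 7.93 and 7.99 in the tumours and at 6.77 in the cerebellum. It was above in each tumour and rose by 1.08 ± 0.21 (adjusted p = 0.0322). The call was lost without the PtchLacZ/+ tumour, where the difference was 1.01.

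The other Eph receptors did not pass. Epha2, at 6.75, 7.61 and 6.86 in the tumours and 5.74 in the cerebellum, differed by 1.33 ± 0.38 (adjusted p = 0.0827), and passed with the 2-month SmoM2 tumour left out (adjusted p = 0.00589). It was singled out after its values were seen. Ephb1, at 7.31, 6.87 and 7.54 in the tumours and 7.91 in the cerebellum, differed by -0.67 ± 0.30 (adjusted p = 0.218), and its other probe set by -0.01. Epha3 and Epha8 varied most between the tumours and are described below. The 6 remaining genes, Epha1, Epha5, Epha7, Epha10, Ephb3 and Ephb4, differed by -0.77 to 0.14. Ephb2 was not analysed here. Unc50, the Golgi protein gene taken by its letters, was at 8.63, 8.76 and 8.58 in the tumours and 9.39 in the cerebellum (-0.74 ± 0.18, adjusted p = 0.0523). It passed with the 2-month SmoM2 tumour left out (adjusted p = 0.0143) and with centred arrays (adjusted p = 0.0411), and Unc5cl, at 5.19, 5.29 and 5.02 in the tumours and 5.06 in the cerebellum, differed by 0.11 ± 0.19.

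**Figure D3:**
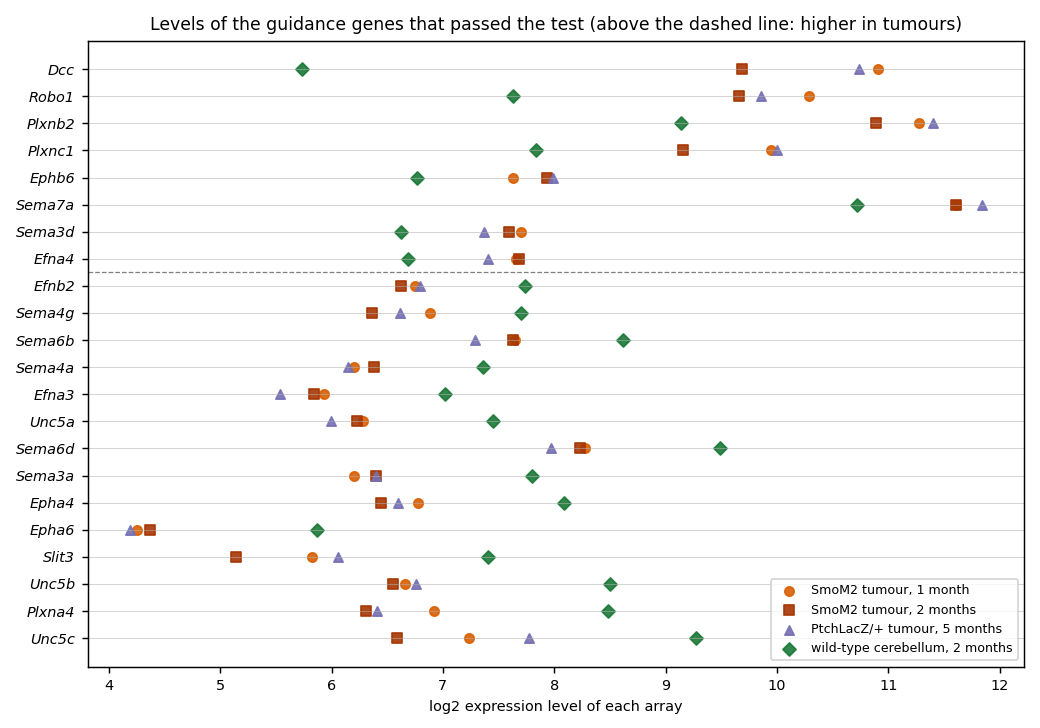
Log2 expression levels (x axis) on the 4 arrays are plotted for the 22 members that passed the test, in order of the difference between tumours and cerebellum. Above the dashed line, all 3 tumours of the 8 genes that rose lie right of the cerebellum, and below it, all 3 tumours of the 14 that fell lie left of it.

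Genes that act beside or downstream of these families were counted from 2 lists, drawn up with earlier results of these data known. Of 27 measured cues and coreceptors outside the families, 6 rose and 3 fell, with a median difference of 0.23. Beside Draxin, Lrig3 rose by 3.70 ± 0.23 (adjusted p = 0.00335). Chl1, an adhesion molecule of the L1 family that acts with semaphorin receptors, fell by 2.16 ± 0.30 (adjusted p = 0.0126), and Lrrc4c, a netrin-G ligand, fell by 2.11 ± 0.20 (adjusted p = 0.00607). Of 49 measured cytoplasmic effectors, 9 rose and 13 fell, with a median difference of -0.09. Mical1, an oxidase that takes apart actin filaments on plexin signals, rose by 2.90 ± 0.21 (adjusted p = 0.00405), and Dpysl3, of the collapsin response mediator family, by 2.82 ± 0.26 (adjusted p = 0.00576). Chn2, a Rac-inactivating chimaerin, fell by 4.38 ± 0.81 (adjusted p = 0.0266), and the actin-binding gene Ablim3 fell by 2.99 ± 0.18 (adjusted p = 0.00335). The shares that passed were 33.3% and 44.9%, against 16.0% of all genes and 24.9% of all genes above the median level. The lists were not matched to either set by level.

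The PtchLacZ/+ tumour was next compared with the 2 SmoM2 tumours. No member passed (limma, 0 of 70), nor did any of the 19938 genes, with 1 residual degree of freedom. At an unadjusted p under 0.05, 1 member differed, against 1.40% of all genes. It was Sema3e, at 7.96 in the PtchLacZ/+ tumour and at 9.55 and 8.95 in the 1-month and 2-month SmoM2 tumours, a difference of -1.29 ± 0.35 (unadjusted p = 0.0147, limma). Its PtchLacZ/+ value thus lay outside the SmoM2 values. Unc5c was at 7.77 in the PtchLacZ/+ tumour and at 7.23 and 6.59 in the SmoM2 tumours, a difference of 0.86 with a 95% interval of -0.09 to 1.80. That interval includes no difference, and Unc5c was singled out here after its values were seen. No member of the PtchLacZ/+ tumour lay 1 log2 unit or more beyond the nearer SmoM2 tumour, against 0.386% of all genes. The median difference was -0.07 over the members and -0.03 over all genes.

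The SmoM2 tumours at 1 and 2 months were compared without a test, since each age had 1 array. A difference of at least 1 log2 unit was found in 7 members, against 3.71% of all genes. Higher at 1 month were 5 of them, against 2.05% of all genes. Dcc was at 10.91 at 1 month and 9.69 at 2 months, Sema6a at 10.06 and 8.85, Plxna3 at 9.42 and 8.29, Robo2 at 9.95 and 8.84 and Sema5a at 7.27 and 6.23. Lower at 1 month were 2, against 1.66% of all genes. Epha3 was at 5.43 at 1 month and 7.18 at 2 months, beside 5.99 in the PtchLacZ/+ tumour and 7.25 in the cerebellum. Epha8, an EphA receptor gene best known from the midbrain, was at 7.45 at 1 month and 9.15 at 2 months, beside 7.09 in the PtchLacZ/+ tumour and 7.61 in the cerebellum. The 2-month tumour was thus the one that stood apart for Epha8, and for Epha3 it was the one near the cerebellum. Against the cerebellum, Epha3 differed by -1.05 ± 0.67 (adjusted p = 0.394) and Epha8 by 0.29 ± 0.82 (adjusted p = 0.875). With the 2-month tumour left out the differences were -1.54 for Epha3, which then passed (adjusted p = 0.00877), and -0.34 for Epha8, a change of sign without a call (adjusted p = 0.285).

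In the same 7 genes, the PtchLacZ/+ value was closer to the 1-month than to the 2-month SmoM2 tumour for 6, the exception being Sema5a. Over all members it was closer to the 1-month tumour for 44 of 70, and over all genes for 64.5%. Neither share is limited to genes so far apart between the SmoM2 tumours, so the 7 genes cannot be judged against them. The 2-month tumour also had lower choroid plexus markers (mean of 4 at 7.23, 5.01 and 7.11 in the tumours and 5.88 in the cerebellum) and higher endothelial and mural ones, and their part in these differences was not tested. Among the choroid plexus markers, Ttr was at 11.27, 4.50 and 10.81 in the tumours and 6.23 in the cerebellum, 6.78 apart between the SmoM2 tumours, while Kl, Folr1 and Kcnj13 were 0.75, 0.39 and 0.98 apart. Genes of chromosome 17 were shifted by 0.40 against the cerebellum in the 2-month tumour, relative to other chromosomes, and those of chromosome 6 by 0.22 in it and 0.32 in the PtchLacZ/+ tumour. On these chromosomes lie Sema6b and Plxna4, which fell, Ephb6, which rose, and Efna5, Epha1, Ntn3, Plxna1, Plxnd1, Sema4f and Unc5cl, which did not pass. Dcc, Sema6a, Plxna3, Robo2, Sema5a, Epha3 and Epha8 lie on other chromosomes.

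**Figure D4:**
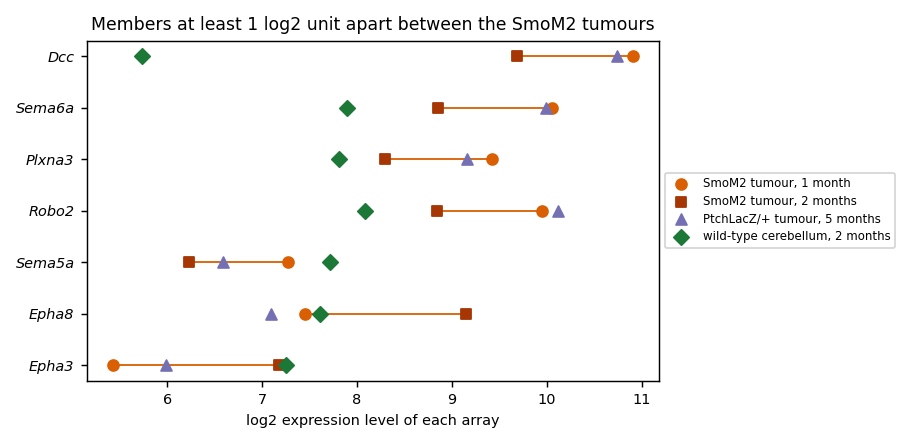
Log2 expression levels (x axis) on the 4 arrays are plotted for the 7 members at least 1 log2 unit apart between the SmoM2 tumours, with a line joining the 1-month and 2-month tumours. For Dcc, Sema6a, Plxna3 and Robo2 all 3 tumours lie above the cerebellum, with the 2-month tumour nearest to it.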

How the data were processed

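Total RNA of 3 medulloblastomas and 1 cerebellum was read on Affymetrix Mouse Gene 1.0 ST arrays. The log2 expression values, for 35557 probe sets and 4 arrays, were deposited by the authors, and per the submitters' processing notes they came from Affymetrix Expression Console. Its version, the summarisation, any normalization and the genome build were not given in the sources used here. That the scale is log2 was read from the range of the values (2.71 to 14.86). They were used as deposited, with no background correction, normalization or filter. The array medians over named genes were 6.73 to 6.82, and the number of arrays limits the precision.

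Genes were named through the platform annotation and updated by Entrez identifier (21698 of 21789 single-symbol probe sets matched RefSeq). Of the members, 5 had several probe sets. For Sema6b both held the same values. Models were fitted in limma (lmFit, eBayes, release 3.58.1, under R 4.3.3) over all 19938 genes with Benjamini-Hochberg adjustment. The fit was also run on simulated data. All arrays varied alike in those data, so they could not test the spread assumed for the lone cerebellum. The tumour comparison had 2 residual degrees of freedom. The threshold was an adjusted p under 0.05, and without replicates a log2 difference of 1.

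Members, gene lists and tests were chosen with earlier results of these data known. Given in every sample were members that passed, the member of each family with the highest mean and the 2 with the largest difference, and those at least 1 log2 unit apart between the SmoM2 tumours. Of each list the 2 largest differences per direction were named. Alternatives were quantile normalization, centring, a filter on dim genes, a trended prior variance, the mean of probe sets, 3 groups in 1 fit and leaving out each tumour.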

Additional observations from a re-analysis of the deposited data

Results flagged for a closer look

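For 6 members the SmoM2 tumours both lay on one side of the cerebellum and the PtchLacZ/+ tumour on the other, by small amounts. No share of all genes with such a split is given here, so this count cannot be judged. The difference between the models, from which the shared cerebellum drops out, is that of the PtchLacZ/+ against the SmoM2 tumours. In that limma comparison none of the 6 passed, with unadjusted p = 0.204 for Efna5, 0.375 for Ntn5, 0.503 for Epha1, 0.473 for Epha10, 0.329 for Ntn3 and 0.436 for Unc5cl. Efna5 differed from it by 0.15 log2 units in the PtchLacZ/+ tumour and by -0.20 and -0.23 in the 1-month and 2-month SmoM2 tumours. Ntn5 differed by 0.17 in the PtchLacZ/+ tumour and by -0.11 and -0.04 in the SmoM2 tumours. For Epha1, not shown to be above background, the values were 0.028 in the PtchLacZ/+ tumour and -0.11 and -0.21 in the SmoM2 tumours. Epha10 differed by -0.052 in the PtchLacZ/+ tumour and by 0.19 and 0.10 in the SmoM2 tumours, Ntn3 by -0.00053 against 0.22 and 0.34, and Unc5cl by -0.038 against 0.13 and 0.23. On the other Epha10 probe set all 3 tumours lay below the cerebellum, at 5.95, 5.49 and 5.84 in the tumours and 6.23 in the cerebellum.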

How the results depend on the processing

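The 8 rises and 14 falls ran from 4 to 17 and from 5 to 17 with each tumour left out in turn. Restricted to genes above the median level, with the fit and adjustment made anew, Ntn1 was added to give 9 rises. The falls numbered 8, since the filter removes genes. The members that passed in the effector list ran from 13 to 28 and in the list of cues and coreceptors from 6 to 14 with a tumour left out. Under quantile normalization, centring, a trended prior variance and the mean of probe sets, the rises numbered 6 to 8 and the falls 12 to 15. Among 39 members named by rule, Epha8, not called in any fit, alone reversed, running from -0.34 with the 2-month SmoM2 tumour left out to 0.69 with the PtchLacZ/+ tumour left out. The counts for the PtchLacZ/+ against the SmoM2 tumours stayed at 0 in each alternative run, and those between the SmoM2 tumours at 6 or 7. The causes were not tested. No paired analysis was possible, since the tumours and the cerebellum came from mice of different genotypes.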
